A study of Rattus norvegicus with 24 samples.

Results

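Shock-sensitive (SS) rats, which had self-administered methamphetamine (METH) and then cut their intake when part of the reinforced lever presses also delivered a footshock, were compared with control (CT) rats in the dorsal striatum. The comparison rested on the 6 arrays titled shock sensitive without the word yoked and the 6 titled control, 12 of the 24 arrays of the series, and on all 68842 transcript clusters that were not array controls. All rats were male Sprague Dawley rats, and their age was not given in the sources used here. CT rats pressed for saline and received no shock. SS rats pressed for METH over weeks with long daily access, were punished over several days, spent about a month without drug with a cue test at the start and at the end, and were killed a day after the second test.

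Shock-resistant (SR) rats (6 arrays) went through the same training and punishment schedule but kept pressing. Under punishment they therefore took more METH and drew more shocks than SS rats. The split between SS and SR was made from behaviour after the fact. Yoked rats received saline and the shocks of a METH-trained partner, with 3 arrays yoked to SS rats (YSS) and 3 yoked to SR rats (YSR). SS and CT rats therefore differed in drug, in shock and in the rule that split the punished rats, and these cannot be told apart in the SS against CT comparison. Each array held the RNA of 1 rat, and the rats were picked for RNA quality.

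The dorsal striatum is built mainly of inhibitory projection neurons that carry D1 or D2 dopamine receptors, with interneurons, astrocytes, oligodendrocytes and microglia around them. METH raises extracellular dopamine there, and the region is known for its part in habitual and compulsive drug taking. Astrocytes of the region take up glutamate and potassium, supply serine to neurons and cover the blood vessels with their endfeet.

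Striatal signal was strong, since 20 of 20 striatal projection neuron genes had a CT mean above that of bioB, as had 6 of 10 D1 and 6 of 9 D2 markers. So had 5 of 14 cortex markers, and these counts do not show that the tissue was free of its neighbours. bioB is a bacterial transcript added to each sample at a fixed low amount, and its CT mean of 9.27 on the log2 signal scale (SD 0.127, n = 6) is the level above which the study counted a gene as expressed. It was passed by 9755 clusters, 14.2% of all. The bioB signal itself ran from 9.10 to 9.48 over the CT arrays and from 9.39 to 9.73 over the SS arrays, so that every SS array was above all but 1 of the CT arrays. Array medians overlapped, at 5.11 to 5.32 in CT and 5.15 to 5.23 in SS. The part of the added transcript's shift in the results was not tested.

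Markers of tissue next to the striatum were high in some arrays. Kl, which marks choroid plexus, was above the bioB level in 3 of 6 SS arrays and 1 of 6 CT arrays. The 17 measured choroid plexus markers all had a higher SS mean (median difference 0.96 log2 units, none at an unadjusted p under 0.05), with a list mean of 6.06, 6.45 and 10.77 (lowest, median and highest array) in CT and 6.19, 8.14 and 10.19 in SS. Of the 14 cortex markers, 13 had a higher SS mean (median 0.42, none at that p), with a list mean of 7.57, 9.03 and 9.62 in CT and 8.03, 9.26 and 9.99 in SS. Both lists overlapped between the groups, and both medians changed sign, to -0.10 and -0.41, once the arrays with Kl above bioB were left out. Kl belongs to the choroid plexus list, so the change of that list follows from how the arrays were chosen. The setting drops 3 of the 6 SS arrays and 1 of the 6 CT arrays. A larger p-value there can therefore also come from the smaller number of arrays. In bulk tissue fewer cells of a type and less RNA per cell cannot be told apart.

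**Figure D1:**
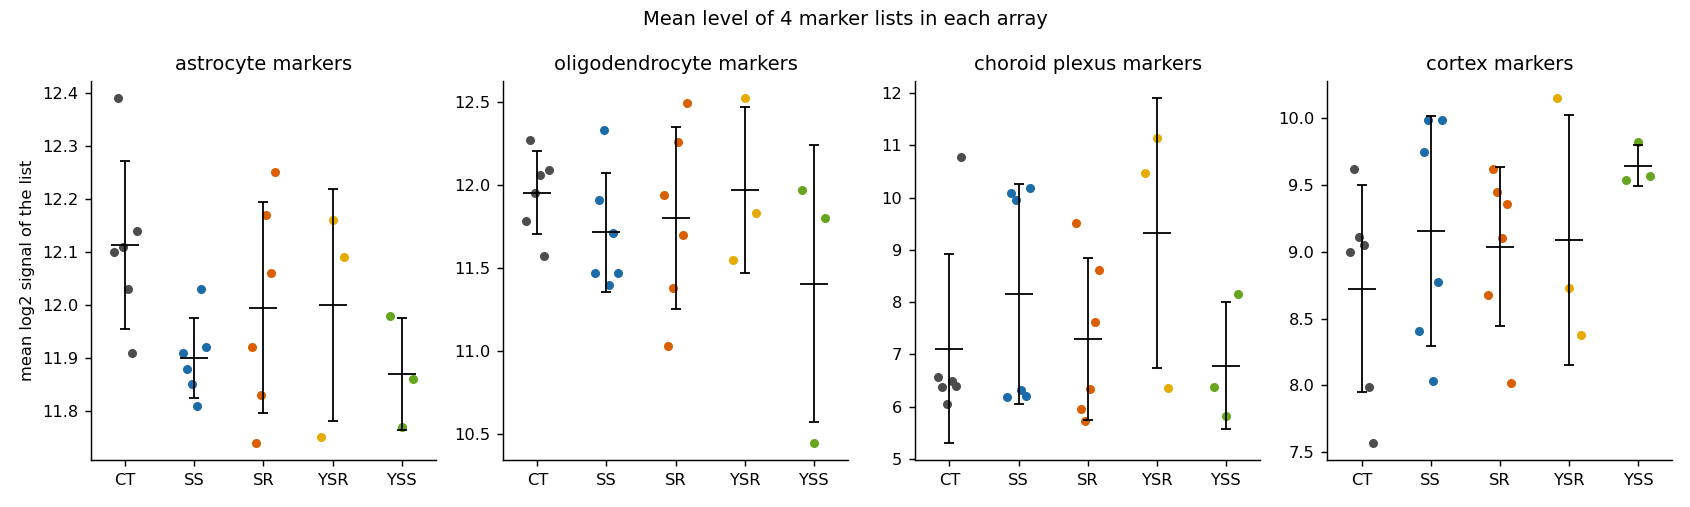
Mean log2 signal of 4 marker lists in each array (points) by group, with group mean and SD (bars). The choroid plexus panel holds a low and a high set of arrays, with the highest CT array at 10.77 and the highest SS array at 10.19, whereas the SS astrocyte points lie between 11.81 and 12.03.

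At the study's criterion of a 1.7-fold difference with an unadjusted p under 0.05, 21 clusters differed between SS and CT rats in a limma fit over the 5 groups. The paper describes comparing only genes that it counted as expressed, whereas the 21 came from all clusters, and 3 of them were above bioB. Of the 21, 12 were higher in SS (0.0174% of the clusters tested) and 9 were lower (0.0131%). With each array centred on its median the split was 18 higher and 8 lower, and with quantile normalization it was 11 and 9. The count was 50, 40, 38, 32 and 70 without CT arrays 1, 3, 4, 5 and 6, and 38, 47, 35 and 47 without SS arrays 1, 3, 4 and 5. No cluster passed an adjusted p of 0.05 in limma, where the smallest was 0.807, and a test without moderated variances gave 0 as well, with 3560 and 3359 clusters at an unadjusted p under 0.05.

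**Figure D2:**
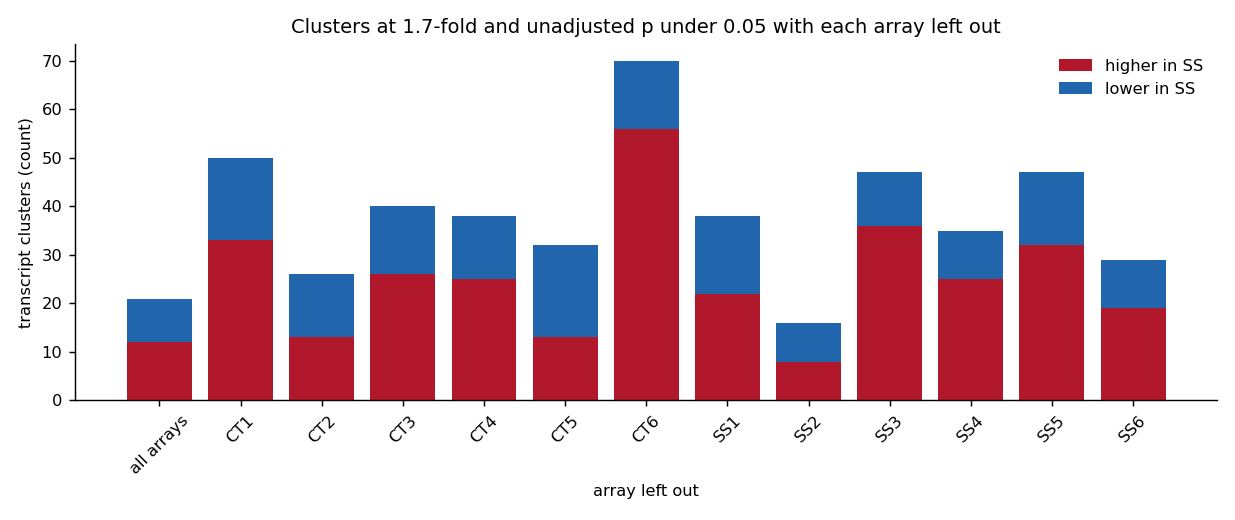
Number of transcript clusters at 1.7-fold and unadjusted p under 0.05 with all arrays and with each CT or SS array left out (x axis), stacked by direction. The count ran from 16 without SS array 2 to 70 without CT array 6, against 21 with all arrays.

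The criterion clusters were mostly faint and unnamed. Of the 21, 14 were noncoding, 4 coding and 3 of unassigned type, only 3 lay above the bioB level, and 1 had a single gene name, Pla2g7. The lowest was a small noncoding cluster on chromosome 2 with a log2 signal of 5.29, 6.05 and 6.69 (lowest, median and highest) in CT rats and 2.29, 3.85 and 5.38 in SS rats. Its SS arrays were low with 1 overlap into the CT range, and the difference of -2.29 (4.89-fold, unadjusted p = 0.000141 in limma, exact permutation p = 0.00433) stood beside -2.30 in SR rats. Another noncoding cluster on chromosome 2, an uncharacterized locus, gave 8.45, 8.52 and 8.87 in CT and 8.91, 9.27 and 10.12 in SS. Every SS array was above every CT array (difference 0.86, exact permutation p = 0.00216, the smallest that 924 regroupings of 6 against 6 arrays allow).

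Pla2g7 encodes the secreted acetylhydrolase that inactivates platelet-activating factor. Its log2 signal was 9.31, 9.66 and 11.43 in CT rats and 8.21, 8.94 and 10.25 in SS rats. Here 4 SS arrays lay under all CT arrays and the other 2 lay inside the CT range, of which the top was set by 1 CT array. The difference was -0.80 (SE 0.373), or 1.74-fold, with an adjusted p of 0.957 in limma, and the exact permutation test over the 12 arrays gave p = 0.102. The unadjusted p of 0.0437 passed 0.05 no longer without CT array 2 (0.155) or 6 (0.0816), or without SS array 1 (0.0835), 4 (0.122), 5 (0.0814) or 6 (0.0648), and it was 0.0501 with the replicate number as a block. YSS rats stood at -0.66 against CT and SR rats at -0.20.

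The phospholipase A2 and platelet-activating factor genes as a list stood close to all clusters. Of 24 measured, 14 were higher and 10 lower in SS, or 19 and 5 with median centring, with a median of 0.02 beside -0.02 over all clusters. At an unadjusted p under 0.05, 2 were lower, or 1 with median centring, beside 3.6% of all clusters. The 2 were Pla2g7 and Pla2g2a, a secreted phospholipase A2 (-0.21, unadjusted p = 0.0125 in limma).

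Without the fold limit more clusters passed an unadjusted p under 0.05, and their split by direction changed with the normalization. Where nothing differs, a share of about 0.05 would pass, and no cluster passed an adjusted p of 0.05. Over all clusters 1081 were higher (1.57%) and 2479 lower (3.6%) in SS at an unadjusted p under 0.05, yet the split was 1563 and 1834 after quantile normalization and 1916 and 1490 after median centring. Above bioB, 136 were higher (1.39%) and 38 lower (0.39%), a split of 104 and 94 with quantile normalization and 215 and 22 with median centring. The higher count above bioB was 313, 81 and 71 without CT arrays 1, 2 and 5 and 81 without SS array 2, and the lower count was 103, 21 and 64 without CT arrays 1, 2 and 5. The lower count over all clusters was 4015 without CT array 1.

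Few clusters separated the groups array by array. All 6 SS arrays were above all 6 CT arrays for 39 clusters (0.0567%) and below them for 116 (0.169%). Above bioB this held for 1 cluster in each direction (0.0103% each), and these were Cul5, higher, and Mlc1, lower. The 8 named genes with the smallest unadjusted p in each direction above bioB are described in the following paragraphs. None of these 16 passed an adjusted p of 0.05 in limma, where their adjusted p ran from 0.87 to 0.917.

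Genes known from astrocytes led the lower side. Mlc1 is a membrane protein of astrocyte endfeet whose loss in humans causes a leukoencephalopathy with cysts. Its log2 signal was 12.02, 12.22 and 12.85 in CT rats and 11.45, 11.86 and 12 in SS rats, so every SS array was below every CT array. The difference was -0.49 (SE 0.147, unadjusted p = 0.00312 in limma, exact permutation p = 0.00216), and it was -0.54 without the arrays with Kl above bioB. SR rats were at -0.26, YSS rats at -0.29 and YSR rats at -0.03 against CT. SS differed from SR by -0.23 (unadjusted p = 0.139 in limma), so the lower signal was not shown to be particular to SS rats.

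Ntsr2, the neurotensin receptor 2 that rodent astrocytes carry, gave 13.86, 14.01 and 14.44 in CT and 13.37, 13.48 and 13.89 in SS. Only 1 SS array reached into the CT range. The difference of -0.50 (SE 0.164, exact permutation p = 0.00433) stood beside -0.44 in SR, -0.56 in YSS and -0.57 in YSR rats, all against the same CT arrays.

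Psat1 encodes phosphoserine aminotransferase of the serine synthesis pathway, which in brain is mainly a pathway of astrocytes. Signals were 12.70, 13.35 and 13.64 in CT and 12.35, 12.69 and 13.12 in SS, with 3 SS arrays under all CT arrays and 3 inside the CT range. This gave -0.55 (SE 0.171, exact permutation p = 0.0195), beside -0.34 in SR and -0.63 in YSS rats. Of 13 genes of serine synthesis and amino acid transport, a list drawn up after Psat1 was seen, 7 were lower and 6 higher (median -0.06), and 3 were lower at an unadjusted p under 0.05, beside 3.6% of all clusters. Those were Psat1, the arginine and lysine transporter Slc7a2 (-0.39) and the large neutral amino acid transporter Slc7a5 (-0.28), whose unadjusted p was 0.0672 with median centring. Phgdh, which catalyses the first step of serine synthesis, was at -0.36 (unadjusted p = 0.102 in limma).

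Sox9 and Sox2 encode transcription factors of neural stem cells that mature astrocytes keep. For Sox9 the log2 signal was 11.01, 11.22 and 12.10 in CT and 10.42, 11.03 and 11.13 in SS, and 3 SS arrays lay under all CT arrays. Its difference was -0.44 (SE 0.165, exact permutation p = 0.0303), but -0.16 between biweight means, and its unadjusted p was 0.0562 without moderated variances. Sox2 gave 11.27, 11.43 and 12.41 in CT against 10.76, 11.14 and 11.38 in SS, with 5 SS arrays under all CT arrays. Its difference was -0.45 (SE 0.174, exact permutation p = 0.013), and without CT array 2, the highest, it was -0.29 (unadjusted p = 0.0572 in limma). Without the arrays with Kl above bioB, Sox2 was at -0.51 (unadjusted p = 0.0505 in limma).

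Against CT, Sox9 stood at -0.22 in SR and -0.64 in YSS rats, and Sox2 at -0.08 and -0.41. SS was lower than SR in Sox2 by -0.37 (unadjusted p = 0.0422 in limma, adjusted p = 1). Over 9 measured SOX factors, a list drawn up after these were seen, 7 were lower and 2 higher in SS (median -0.23), and the same 7 to 2 split held with quantile normalization and with median centring. At an unadjusted p under 0.05 there were 3 lower, Sox2, Sox9 and Sox6 (-0.21, unadjusted p = 0.0295 in limma), beside 3.6% of all clusters, a count that was 1 without CT array 2 and 5 without CT array 3. Sox8 (-0.31) and Sox10 (-0.23) of the oligodendrocyte lineage and Sox5 (0.19) and Sox11 (0.12) did not pass that limit.

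Further genes completed the lower side. Ptch1, the receptor that restrains hedgehog signalling and is itself one of its targets, gave 10.14, 10.26 and 10.49 in CT and 9.83, 10.04 and 10.34 in SS. All but 1 SS array lay under the CT range, and the difference was -0.25 (SE 0.0907, exact permutation p = 0.0346), beside -0.05 in SR and -0.29 in YSS rats. Without the arrays with Kl above bioB the Ptch1 difference was -0.07 (unadjusted p = 0.489 in limma). Of 12 hedgehog pathway genes, again listed after the fact, 8 were lower and 4 higher (median -0.08). Gli2, a transcription factor of the pathway with a CT mean of 5.65, far under bioB, had all 6 SS arrays (5.41 to 5.62) below all 6 CT arrays (5.63 to 5.71), a difference of -0.13 (exact permutation p = 0.00216) that was -0.11 without SS array 3 (unadjusted p = 0.0571 in limma), and -0.08 (unadjusted p = 0.286) with the Kl-high arrays left out.

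Gpc5, a glypican of the cell surface, gave 9.69, 9.86 and 10.14 in CT and 9.38, 9.57 and 9.86 in SS, with 3 SS arrays under all CT arrays (difference -0.26, SE 0.0974, exact permutation p = 0.0455). It was at -0.18 (unadjusted p = 0.209 in limma) without the arrays with Kl above bioB. Mmd2, a membrane protein of the progestin and adipoQ receptor family, gave 13.03, 13.20 and 13.61 in CT and 12.36, 12.97 and 13.21 in SS, again with 3 arrays under the CT range (-0.35, SE 0.135, exact permutation p = 0.0584). Its unadjusted p passed 0.05 no longer without CT array 2 (0.0536) or SS array 4 (0.0614), nor without the arrays with Kl above bioB (0.0673). SS was lower than SR by -0.29 in Mmd2 (unadjusted p = 0.0406 in limma, adjusted p = 1).

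**Figure D3:**
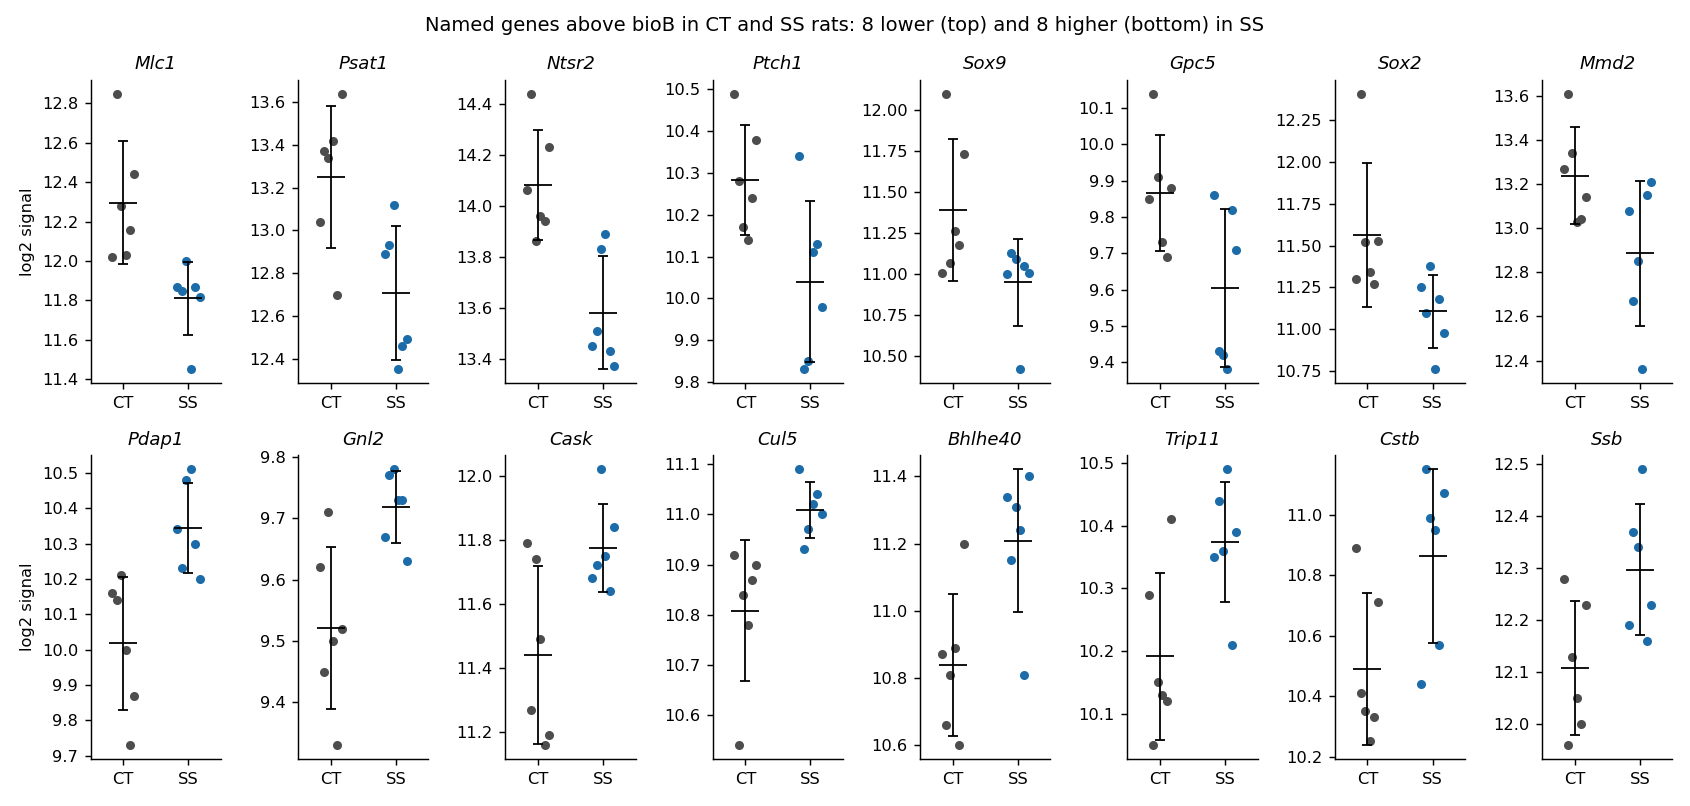
Log2 signal of the 8 lower (top) and 8 higher (bottom) named genes in the 6 CT and 6 SS arrays (points), with mean and SD (bars); each panel has its own axis. The groups are apart only for Mlc1 and Cul5, and the other genes overlap by at least 1 array.

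Most members of the astrocyte list did not pass an unadjusted p of 0.05. Of 16 measured, 15 had a lower mean in SS and 1, Glul, was at 0.00, with a median of -0.16 beside -0.02 over all clusters and 0.035 over clusters above bioB. At an unadjusted p under 0.05 there were 3, Mlc1, Ntsr2 and Sox9, against 3.6% of all clusters. Gfap, the filament protein of astrocytes, stood at -0.47 (unadjusted p = 0.21 in limma) and the water channel Aqp4 at -0.20 (unadjusted p = 0.223), while the glutamate transporter Slc1a2 was at -0.01. The list mean was 11.91, 12.11 and 12.39 in CT arrays and 11.81, 11.90 and 12.03 in SS arrays, and the ranges overlapped.

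With quantile normalization 16 of 16 astrocyte markers were lower, with median centring 14, and with the Kl-high arrays left out 13, at a median of -0.12. Against CT the median was -0.09 in SR rats and -0.20 in YSS rats, and between SS and YSS rats directly it was 0.03. Choroid plexus and cortex markers were both highest in arrays 2, 3 and 6 of the SS rats. In CT rats they did not go together, since CT array 6 had the highest choroid plexus list mean (10.77) and the lowest cortex list mean (7.57). With the choroid plexus list mean as a covariate 14 of 16 astrocyte markers were lower (median -0.16, 3 at an unadjusted p under 0.05). With the cortex list mean it was 15 (median -0.14, again 3).

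Oligodendrocyte markers were lower as well, 15 of 15 with a median of -0.23, but none passed an unadjusted p of 0.05. Opalin, a glycoprotein of mature oligodendrocytes, was at -0.43 (unadjusted p = 0.224 in limma). The list mean per array was 11.57, 12 and 12.27 in CT and 11.40, 11.59 and 12.33 in SS, so the highest array of all was an SS array. Of 14 microglia markers, 8 were lower and 6 higher (median -0.07).

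Counts for genes of the projection neurons moved with the arrays that were kept. Of 20 striatal projection neuron genes 16 were lower in SS (median -0.14, none at an unadjusted p under 0.05), yet 5 of 20 were lower without SS array 3 (median 0.06), and none of 20 was lower without the arrays with Kl above bioB (median 0.48). Among 25 dopamine signalling genes 20 were lower (median -0.09), and 10 of 25 without those arrays (median 0.17). At an unadjusted p under 0.05, 3 were lower, beside 3.6% of all clusters, but 1 with median centring and 1 among the 17 members above bioB. The 3 were the dopamine receptor Drd3 (-0.25, unadjusted p = 0.0223 in limma), the vesicular monoamine transporter Slc18a2 (-0.15, unadjusted p = 0.0187) and Maob. The dopamine receptors Drd1 (-0.16) and Drd2 (-0.28) did not differ past an unadjusted p of 0.05. Maob, the monoamine oxidase of glia, stood at -0.42 (unadjusted p = 0.0401 in limma, exact permutation p = 0.108) and at -0.23 (unadjusted p = 0.335) without the arrays with Kl above bioB. Its unadjusted p passed 0.05 no longer without CT array 2 (0.143) or 6 (0.108) or without any 1 of SS arrays 2 to 6 (0.0555 to 0.0732).

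**Figure D4:**
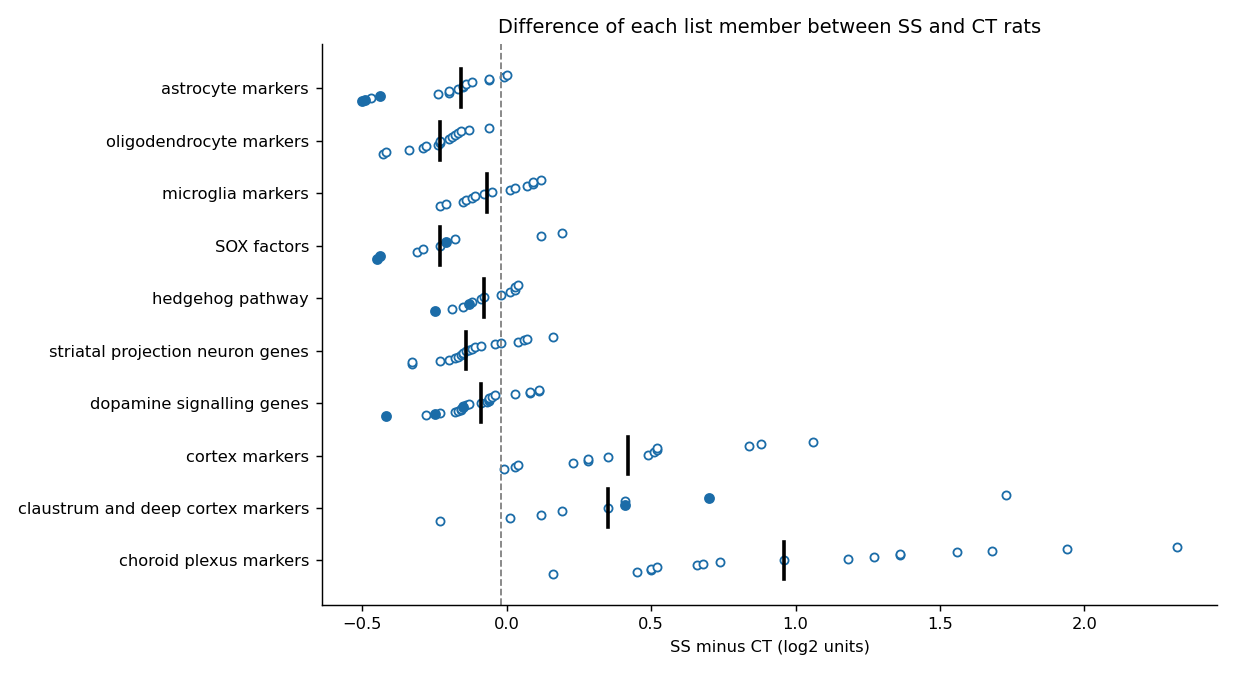
SS minus CT difference (log2 units) of each measured member of 10 gene lists (points, filled at unadjusted p under 0.05), with the list median (bar) and the median over all clusters (dashed line). Astrocyte and oligodendrocyte markers lie at or left of 0, with medians of -0.16 and -0.23, and the 17 choroid plexus markers lie right of 0 with a median of 0.96.

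On the higher side the named genes belonged to many processes and their differences were small. Pdap1, a phosphoprotein that binds platelet-derived growth factor, had the smallest unadjusted p above bioB (0.000761 in limma). Its signal was 9.73, 10.07 and 10.21 in CT and 10.20, 10.32 and 10.51 in SS, with 5 SS arrays above all CT arrays. The difference was 0.33 (SE 0.0841, exact permutation p = 0.00433). SR rats stood at 0.21 against CT, YSS rats at 0.03 and YSR rats at -0.01, and SS was higher than YSS by 0.30 (unadjusted p = 0.00763 in limma, adjusted p = 0.859, exact permutation p = 0.0238).

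Cul5 is the scaffold of a ubiquitin ligase that marks proteins for degradation. It gave 10.54, 10.85 and 10.92 in CT and 10.93, 11.01 and 11.09 in SS. No SS array overlapped the CT arrays, although the difference was only 0.20 (SE 0.0699, exact permutation p = 0.00216). The values were 0.11 in SR and 0.12 in YSS rats against CT.

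Bhlhe40 encodes a transcriptional repressor of the circadian clock. Signals were 10.60, 10.84 and 11.20 in CT and 10.81, 11.28 and 11.40 in SS, where 4 arrays were above all CT arrays (0.37, SE 0.13, exact permutation p = 0.0238). All other groups were higher than CT too, at 0.25 in SR, 0.35 in YSS and 0.28 in YSR rats. Over 18 circadian clock genes 11 were higher and 7 lower (median 0.04), or 14 and 4 with median centring. Bhlhe40 was the 1 at an unadjusted p under 0.05, a limit at which 1.57% of all clusters were higher.

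Cstb, an inhibitor of lysosomal cathepsins, gave 10.25, 10.38 and 10.89 in CT and 10.44, 10.97 and 11.15 in SS, with 4 SS arrays above the CT range (0.37, SE 0.141, exact permutation p = 0.0455). It was at 0.21 (unadjusted p = 0.287 in limma) without the arrays with Kl above bioB. Cask, a scaffold kinase of synapses, gave 11.16, 11.38 and 11.79 in CT and 11.64, 11.73 and 12.02 in SS. Only 2 SS arrays were above all CT arrays, and the SS arrays were tighter (0.33, SE 0.117, exact permutation p = 0.0346). With the arrays with Kl above bioB left out, Cask was at 0.20 (unadjusted p = 0.174 in limma). A second Cask cluster had a CT mean of 12.02 and an SS mean of 12.24 (unadjusted p = 0.0276 in limma).

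Gnl2 and Ssb act in RNA and ribosome production, as a nucleolar GTPase and as the La protein that binds new polymerase III transcripts. Gnl2 gave 9.33, 9.51 and 9.71 in CT and 9.63, 9.73 and 9.78 in SS, with 4 SS arrays above all CT arrays (0.20, SE 0.0687, exact permutation p = 0.00866). Ssb gave 11.96, 12.09 and 12.28 in CT and 12.16, 12.29 and 12.49 in SS, with 3 above (0.19, SE 0.0719, exact permutation p = 0.0303). Trip11, a golgin that tethers vesicles at the Golgi, gave 10.05, 10.14 and 10.41 in CT and 10.21, 10.38 and 10.49 in SS, with 2 above (0.18, SE 0.0688, exact permutation p = 0.0216). In SR rats Ssb and Gnl2 stood at 0.22 and 0.15 against CT. Once the arrays with Kl above bioB were left out, both were at 0.19, with unadjusted p-values of 0.0915 and 0.0832 in limma.

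Of 4382 clusters above bioB with 1 gene name, 69 were higher and 22 lower at an unadjusted p under 0.05. Of all clusters above bioB, 1.39% were higher and 0.39% lower at that p. Other names on the higher side, picked after their values were seen, were Atp6v1h and Atp6v1d of the vacuolar proton pump (CT means of 10.24 and 13.01, SS means of 10.45 and 13.33), the nicotinic receptor subunit Chrnb2 (11.12 and 11.49) and the amyloid precursor App (16.47 and 16.64). Lxn, a carboxypeptidase inhibitor that marks claustrum and deep cortex, was at 0.70 (unadjusted p = 0.0266 in limma), and its list held 8 of 9 members higher with a median of 0.35 that was 0.00 without the arrays with Kl above bioB.

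SOX proteins bind DNA at short AT-rich sites, so the promoters of the named genes were searched on both strands for ACAAAG and AACAAT, and for the E-box CACGTG that Bhlhe40 binds. RefSeq promoters (build GRCr8, 300 bases, 250 before to 50 after the start) were at hand for 7 of the 8 lower and 7 of the 8 higher genes. Of the lower genes 1, Mlc1, held a SOX-type match, against 27.7% of all 33469 promoters with either motif. Among the higher genes, Bhlhe40 and Cstb held CACGTG, against 6.42% of all promoters, and Ssb held AACAAT, against 11.7%. The Mlc1 promoter is shown because Mlc1 was the lower gene without overlap and carried both motifs side by side. Capitals mark ACAAAG, starting at base 105, and ATTGTT, which is AACAAT read on the opposite strand, starting at base 113. The stretch is chr7:121946649-121946948 on the minus strand.
Mlc1 promoter: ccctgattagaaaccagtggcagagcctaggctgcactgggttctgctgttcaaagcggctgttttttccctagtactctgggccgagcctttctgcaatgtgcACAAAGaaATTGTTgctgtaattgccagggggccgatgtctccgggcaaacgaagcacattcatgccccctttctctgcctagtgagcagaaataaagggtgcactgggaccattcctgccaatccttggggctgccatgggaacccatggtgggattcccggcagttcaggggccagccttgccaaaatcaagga

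Genes that the study itself followed gave mixed values. Cartpt, the precursor of the CART peptides that stimulants regulate in striatum, gave 6.46, 6.85 and 7.64 in CT and 5.70, 6.25 and 6.78 in SS, with 4 SS arrays under all CT arrays. The difference was -0.72 (SE 0.265, exact permutation p = 0.0238), and against SR rats it was -1.13 (unadjusted p = 0.000293 in limma, adjusted p = 1). The study followed Cartpt because SR and SS rats differed on these arrays, so the small p against SR restates that choice. By qPCR the study also reported higher Cartpt in the striatum of SR rats. Against CT the array difference was -0.64 (unadjusted p = 0.0925 in limma) without the arrays with Kl above bioB and -0.58 (unadjusted p = 0.0619) without CT arrays 1 and 3. Oxt (-0.82, SE 1.27), Oxtr (-0.04), Fmo2 (0.26), Pdk4 (0.06) and Ptpro (0.32) did not pass an unadjusted p of 0.05 against CT. All of these genes lay under the bioB level.

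Of 23 measured genes that the study listed for striatum, which it chose on these arrays, 18 were higher and 5 lower in SS (median 0.20), 2 in each direction at an unadjusted p under 0.05, beside 1.57% higher and 3.6% lower of all clusters. With the arrays with Kl above bioB left out, 12 of 23 were lower and the median was -0.03. None of the 23 met the criterion. Clusters without a gene name were not among them, although some are described as genes that the study listed. Of these, regulator of G-protein signaling 21 (0.92, unadjusted p = 0.0147 in limma) and a microRNA on chromosome 3 (-0.93, unadjusted p = 0.00125) met it. Enpp6, which the study listed as lower in SS than in CT rats, was at -0.80 (unadjusted p = 0.105). Wfs1, an endoplasmic reticulum membrane protein found in striatal and cortical neurons, gave 10.57, 11.76 and 12.57 in CT and 12, 12.42 and 13.26 in SS. Here 3 SS arrays were above all CT arrays, and the difference was 0.86 (SE 0.425, unadjusted p = 0.0544 in limma, exact permutation p = 0.0411). It stood at 1.20 in SR and 1.58 in YSS rats, and at 0.46 (unadjusted p = 0.266 in limma) without the arrays with Kl above bioB. Nr4a2, a nuclear receptor that marks claustrum and deep cortex, was at 1.73 (SE 0.955, exact permutation p = 0.128) and at -0.20 without those arrays.

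MicroRNAs are short RNAs that repress messenger RNAs matched by their seed, bases 2 to 8 from the 5′ end. The array read 378 named miRNA clusters, of which 7 lay above bioB, and it does not separate the arms of a hairpin. None of these 378 met the criterion. Clusters without a gene name were not among them, although some are described as microRNAs. Of such clusters on chromosome 3, a lower one (-0.93, unadjusted p = 0.00125 in limma) and a higher one (1.19, unadjusted p = 0.0163) met the criterion. Of the 378, 225 were lower in SS rats and 153 higher (median -0.04), but 191 were lower and 187 higher with median centring. At an unadjusted p under 0.05, 22 were lower (5.82%) and 7 higher (1.85%), beside 4.54% and 1.97% of the other noncoding clusters, and the count of 22 was 37 without CT array 1 and 34 without CT array 6. The smallest adjusted p among them was 0.87 in limma.

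The miRNAs described next were picked after their values were seen, and their mature sequences are those of RefSeq (build GRCr8) with the seed in capitals. They are shown because Mir495 was the 1 miRNA cluster whose groups did not overlap, because miR-543-3p from the same locus is its near copy in sequence, and because miR-93-5p and miR-20b-5p share a seed. rno-miR-495 lies at chr6:134554103-134554124 and rno-miR-543-3p at chr6:134552453-134552473, both on the plus strand.
rno-miR-495: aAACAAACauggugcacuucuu
rno-miR-543-3p: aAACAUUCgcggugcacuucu
rno-miR-93-5p: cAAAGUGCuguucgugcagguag
rno-miR-20b-5p: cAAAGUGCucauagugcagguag
rno-miR-92a-3p: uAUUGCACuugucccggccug

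Mir495 gave a log2 signal of 5.35, 5.47 and 6 in CT rats and 4.82, 5.02 and 5.31 in SS rats, all under bioB. Every SS array was below every CT array, and the difference was -0.50 (SE 0.128, unadjusted p = 0.000791 in limma, exact permutation p = 0.00216). SR rats stood at -0.10 and YSS rats at 0.10 against CT. SS was lower than SR by -0.40 (exact permutation p = 0.00433, adjusted p = 1 in limma) and lower than YSS by -0.59 (exact permutation p = 0.0119, the smallest that 6 against 3 arrays allow). The Mir495 difference ran from -0.55 to -0.39 over the alternatives, with -0.53 without the arrays with Kl above bioB.

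Mir543, whose hairpin lies 1570 bases from that of Mir495 in GRCr8, was on the other side. Its 3p product shares 5 of 7 seed bases and 17 of 21 aligned bases with miR-495. Signals were 4.92, 5.09 and 5.55 in CT and 5.14, 5.71 and 6.10 in SS, with 3 SS arrays above all CT arrays (0.54, SE 0.188, exact permutation p = 0.0216). SR rats were at 0.48 and YSS rats at 0.71, and SS differed from SR by 0.06. Within 500 kb of Mir495 the deposited annotation placed 38 miRNA clusters, of which 15 were lower and 23 higher (median 0.07). At an unadjusted p under 0.05 there were 1 lower and 2 higher (2.63% and 5.26%), beside 5.82% and 1.85% of all miRNA clusters. The other higher one was Mir1193 (0.33, unadjusted p = 0.0233 in limma).

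**Figure D5:**
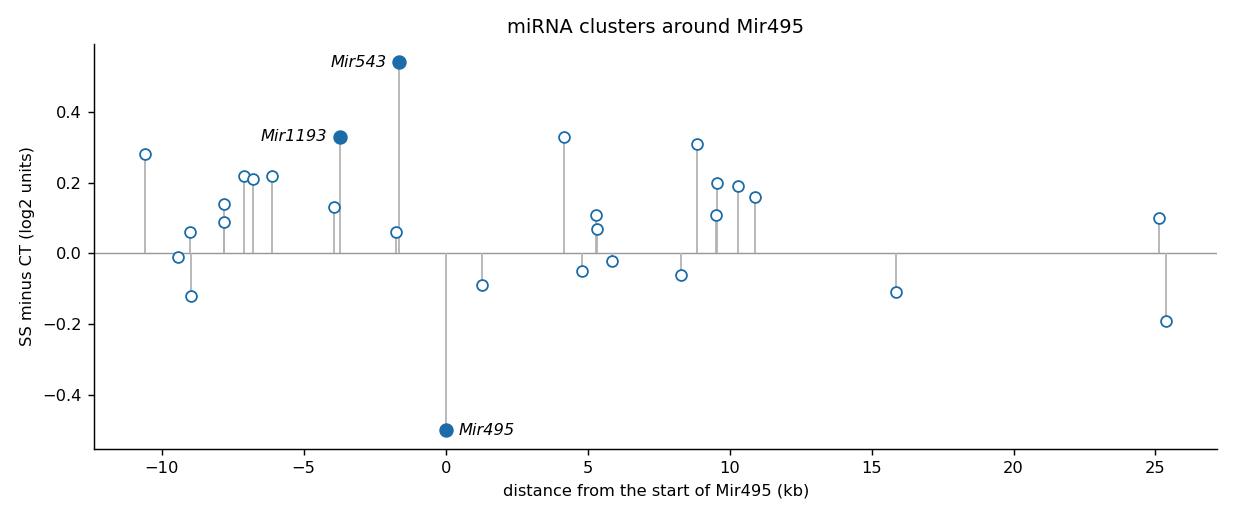
SS minus CT difference (log2 units, y axis) of the miRNA clusters around Mir495 by distance from its start (x axis, kb, deposited annotation), filled at unadjusted p under 0.05. Mir495 is at -0.50 while Mir543 and Mir1193 are at 0.54 and 0.33.

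Mir93 belongs to the miR-17 family, known for its part in cell growth. Its signal was 5.09, 5.27 and 5.48 in CT and 4.93, 5.04 and 5.14 in SS, with 5 SS arrays under all CT arrays (-0.25, SE 0.0619, exact permutation p = 0.00433). The mature miR-93-5p lies at chr12:22156894-22156916 and miR-20b-5p at chrX:137343239-137343261, both on the minus strand, and they match at 20 of 23 bases. A sequence was at hand for 322 of 372 miRNA names, and among these 4 clusters carried the miR-93-5p seed. All 4 had a lower SS mean, Mir20b by -0.29 (unadjusted p = 0.0114 in limma), Mir106b by -0.05 and Mir20a by -0.05 besides Mir93. Names without a sequence could not be searched, so the 4 need not be all clusters with this seed. Mir17-1 and Mir17-2, which carry the family's name, were not among the 4, and that does not show that they lack the seed. These were at 0 and -0.09 (unadjusted p = 0.985 and 0.336 in limma).

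Mir92a1, from the cluster that also encodes miR-17, gave 6.47, 6.72 and 7.15 in CT and 6.33, 6.39 and 6.63 in SS, with 4 SS arrays under all CT arrays (-0.33, SE 0.0953, exact permutation p = 0.0108). Its 3p product lies at chr15:98588602-98588622 on the plus strand. SR rats were as low, at -0.36, and YSS rats stood at -0.09. Over 14 clusters of the miR-17 family and its gene neighbours, listed after these were seen, 9 were lower and 5 higher (median -0.06), 4 of them lower at an unadjusted p under 0.05, beside 5.82% of all miRNA clusters. Without the arrays with Kl above bioB, 7 were lower (median -0.01), 2 of them at that p, and Mir92a1 was at -0.28 (unadjusted p = 0.0641 in limma).

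Among faint coding genes, also picked after their values were seen, Tes had no overlap and the smallest p. Tes encodes testin, a protein of focal adhesions. It gave 6.29, 6.71 and 6.87 in CT and 6.96, 7.20 and 7.33 in SS, a difference of 0.50 (SE 0.122, unadjusted p = 0.000411 in limma, exact permutation p = 0.00216). SR rats stood at 0.22, YSS rats at 0.07 and YSR rats at 0.58, and SS was higher than YSS by 0.43 (unadjusted p = 0.00819 in limma). Dusp2, a phosphatase of MAP kinases, gave 5.30, 5.41 and 5.50 in CT and 5.60, 5.67 and 5.87 in SS without overlap (0.30, exact permutation p = 0.00216), beside 0.32 in YSS rats. It was at 0.23 (unadjusted p = 0.0542 in limma) without the arrays with Kl above bioB.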

How the data were processed

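The authors labelled total striatal RNA with the WT Plus kit, hybridised it to the Affymetrix Rat Transcriptome Array 1.0 and, per the labels, processed the arrays in Affymetrix Expression Console (version and algorithm not given in the sources used here). They deposited log2 signals for 70580 rows, of which 1738 control rows were left out. The value table holds no counts, and the number of arrays limits the precision. The deposited analysis table, which also holds the authors' own fold changes and p-values (not used here), gave gene names, with 1 name for 20257 clusters. Its annotation build was not given in the sources used here.

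A limma 3.58.1 (R 4.3.3) fit over the 24 arrays and 5 groups, with no covariate, gave SS minus CT. The p-values were adjusted by Benjamini-Hochberg over all 68842 clusters. Exact permutation tests were two-sided over the arrays compared. The fit was tested on simulated data. Named were every named cluster above bioB at the criterion, the 8 smallest p in each direction among named clusters above bioB, the leading member of each gene list, genes the study followed and 4 tissue genes. Members and lists were chosen with earlier results of these data known. Alternatives changed normalization, moderation, arrays, covariates and limits. Residuals of SS and CT arrays with the same replicate number correlated between -0.199 and 0.31, so the numbers were not taken as pairs. Whether the rats of a group came from separate litters was not given, and p-values measure the spread between rats.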

Additional observations from a re-analysis of the deposited data

Results flagged for a closer look

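In 13 of 134 tests of groups of 6 arrays for the named genes, 1 array stood far from the other 5. Chance flags about 1 in 20 groups. In the genes described above, SS array 4 had the lowest log2 signal of Mlc1 (11.45, the next being 11.82) and of Sox9 (10.42, next 11). CT array 2 had the highest Sox2 signal (12.41, next 11.53), CT array 1 the highest Mir495 signal (6, next 5.50) and CT array 5 the lowest Tes signal (6.29, next 6.67). SS array 1 had the highest Maob signal (10.69, next 10.25).

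CT array 6 stood apart in Kl (14.65, next 6.21), a gene of choroid plexus, and in Igf2 (8.04, next 6.16) and Fmo2 (7.32, next 6.13). The remaining single arrays were CT array 4 in Pomc (4.83, next 4.66), CT array 5 in Hsd17b7 (7.05, next 7.33), SS array 5 in Gadd45g (5.17, next 5.58) and SS array 6 in Oxt (8.90, next 5.99).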

How the results depend on the processing

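The count of 21 clusters at the criterion was 3 for clusters above bioB alone, 1 with 1 cluster per gene name, 51 with the cortex covariate, 171 without the arrays with Kl above bioB and 217 without CT arrays 1 and 3, whose Pmch signal was high. It was 87 at 1.5-fold, 7 at 2-fold and 13 at p under 0.01, which follows from the limits. With 1 array left out it ran from 16 to 70, and with the replicate block it was 21, split 13 to 8. With the block the unadjusted p of Pla2g7 (0.0501) and Gfra1 (0.0625) no longer passed 0.05, that of Tmem119 (0.0463) did, and no other named gene changed side. The adjusted count was 0 in every alternative run, and the smallest adjusted p was 0.156, without CT array 2. Other causes were not tested.

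Of 67 named genes, 32 had an unadjusted p under 0.05, and 12 of these kept it in every alternative that held them: Pdap1, Cul5, Bhlhe40, Trip11, Mlc1, Psat1, Ntsr2, Hdac8, Mir495, Tes, Mir543 and Mir93. The alternative with clusters above bioB alone held 36 of the 67, and Hdac8, Mir495, Tes, Mir543 and Mir93 were not among them. Differences changed sign without the arrays with Kl above bioB for Kl (-0.24), Nrn1 (-0.64), Nr4a2 (-0.20), Prkcd (-0.06), Rasd2 (0.47), Cck (-0.86), Igf2 (-0.09), Oxtr (0.08), Pdk4 (-0.09), Glra2 (-0.12), Ttr (-0.49) and Slc17a7 (-1.82). They did so with biweight means for Pmch (0.14), Tac1 (-0.07), Lpcat4 (-0.20), Ptpro (-0.06) and Slc17a7 (-0.37), and without CT arrays 1 and 3 for Pmch (0.56), Oxt (0.13) and Pdk4 (-0.16). The choroid plexus covariate turned Igf2 (-0.03), Pdk4 (-0.04) and Ttr (-0.27), and the cortex covariate turned Oxtr (0.01) and Slc17a7 (-0.25). With 1 array left out, the sign turned at some array for Dnah12 (-0.61 to 0.02), Tac1 (-0.07 to 0.52), Lpcat4 (-0.01 to 0.27), Ptpro (-0.06 to 0.50), Oxtr (-0.09 to 0.03) and Pdk4 (-0.07 to 0.20).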

Other observations

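Transmitter receptor genes gave these counts in SS rats. Of 15 GABA-A receptor genes 11 were higher (median 0.08), of 8 AMPA and kainate receptor genes 6 (median 0.11) and of 13 serotonin receptor genes 9 (median 0.10), none at an unadjusted p under 0.05. Of the 7 NMDA receptor genes 4 were higher (median 0.14), and Grin2a, which encodes a glutamate-binding subunit, was at 0.29 (unadjusted p = 0.0461 in limma, exact permutation p = 0.0649). Grin2c, which encodes another subunit, was at -0.22 (unadjusted p = 0.0222 in limma). With the arrays with Kl above bioB left out, 4 of the 7 were lower (median -0.04) and Grin2a was at 0.25 (unadjusted p = 0.123). Against CT rats the median of the GABA-A receptor genes was 0.51 in SR and 0.27 in YSS rats. Gfra1, a receptor for glial cell line-derived neurotrophic factor, was at 0.64 (unadjusted p = 0.041 in limma, exact permutation p = 0.0671), and at 0.30 (unadjusted p = 0.378) without those arrays, in a list of 12 neurotrophin genes with a median of 0.02.

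Stress and activity genes had few members past an unadjusted p of 0.05, 1 lower of 19 immediate early genes and none in the other lists given here. Over all clusters 3.6% were lower at that p. Medians were -0.02 over 19 immediate early genes (7 higher, 12 lower), 0.05 over 15 glucocorticoid-response genes (9 higher, 6 lower), -0.01 over 17 endoplasmic reticulum stress genes (8 higher, 9 lower) and -0.04 over 12 heat shock genes (4 higher, 8 lower). With median centring the immediate early genes were 10 higher and 9 lower (median 0.02) and the endoplasmic reticulum stress genes 11 higher and 6 lower (median 0.03). Npas4, an activity-induced transcription factor, stood at -0.56 (unadjusted p = 0.0246 in limma, exact permutation p = 0.0866) in SS rats, beside -0.70 in SR and -0.87 in YSS rats. Its unadjusted p passed 0.05 no longer without CT array 1 (0.0735), 2 (0.0811) or 5 (0.0577) or SS array 2 (0.0575). Without the arrays with Kl above bioB the immediate early gene median was -0.20, with 12 of 19 lower, and Npas4 was at -0.51 (unadjusted p = 0.112). Hdac8, a histone deacetylase, was at -0.21 with 3 SS arrays under all CT arrays (exact permutation p = 0.0238). It was the 1 of 11 histone deacetylase genes at an unadjusted p under 0.05, a limit at which 3.6% of all clusters were lower. Pomc, the precursor of beta-endorphin, had a CT mean far under bioB, and its 6 SS arrays (4.38, 4.49 and 4.56, lowest, median and highest) lay under its 6 CT arrays (4.56, 4.60 and 4.83), with the nearest pair apart by less than the rounding, at a difference of -0.15. Its unadjusted p of 0.0221 in limma was 0.070 with quantile normalization, 0.0747 without CT array 4 and 0.0567 without SS array 4.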
